A study of Mus musculus with 9 samples.

Results

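Gusb encodes beta-glucuronidase, and it is the only gene described here, 1 of the 59709 probes outside the controls on an array of mRNAs and long noncoding RNAs. Its probe was found through the RefSeq identifier in the scanner files, NM_010368.1, which a reference table of assembly GRCm38 pairs with Gusb on chromosome 5. The design is annotated to mm9, so no position was taken from that table. The probe is spotted 20 times on each array. Gusb was chosen by its measured level in an earlier pass over these data, which had found it higher in both aneurysm groups than in controls. Its differences from control are therefore a description and carry no test.

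Abdominal aortas of male mice gave the RNA for 9 single-colour arrays, 3 per group. The control group is labelled wild type, the CaPO4 group had an abdominal aortic aneurysm after calcium phosphate treatment, and the naringenin group had such an aneurysm and was given naringenin, a flavonoid of citrus fruit. The design text speaks of 5 mixed aortas for each group and does not say whether an array held a pool, 1 animal or a repeat of the same pool. Intervals and p-values therefore measure the spread between these arrays, which may be technical. Strain, age, dose and time are not given in the sources used here.

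Beta-glucuronidase is a lysosomal hydrolase that removes terminal glucuronic acid from glycosaminoglycans such as dermatan, heparan and chondroitin sulfate, the sugar chains of proteoglycans in the vessel wall. Its loss causes Sly syndrome, a storage disease in which undegraded glycosaminoglycans build up, the aortic wall included. The enzyme also splits the glucuronides in which flavonoids such as naringenin circulate. In expression work Gusb is widely used as a reference gene, and on this array it stands among such genes, each spotted 20 times.

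The arrays of a group were not equally alike. Across the 18743 probes well above background and with a value on all arrays, CaPO4 1 and 3 correlated at r = 0.994. CaPO4 2 correlated with them at 0.821 and 0.828, and with naringenin 1 and 2 at 0.972 each. Naringenin 3 correlated with naringenin 1 and 2 at 0.945 and 0.948 and was scanned apart from them. Each Gusb result is therefore given by array, and with and without these arrays where it rests on them.

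The Gusb signal was bright on every array, with 20 of 20 spots well above background on each of the 9. Its spots had a geometric mean of 378, 389 and 409 intensity units on controls 1 to 3, before any scaling between arrays. The CaPO4 arrays 1 to 3 gave 510.0, 1881 and 529.7 units. The naringenin arrays 1 to 3 gave 1345, 1379 and 1583 units. These unscaled signals fell into 3 ranges: the controls lowest, CaPO4 1 and 3 slightly above them, and CaPO4 2 with the naringenin arrays highest. The median signal of the negative control spots lay between 2.78 and 6.14 units on all arrays.

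Repeated spots placed each array's Gusb signal more finely than the controls differed from the other arrays. The SD over spots was between 0.025 and 0.11 log2 on the 9 arrays, and the standard error of the array's mean was at most 0.025. On control 1 the spots ranged from 337 to 414 units with a median of 381, and on CaPO4 2 from 1816 to 2026 with a median of 1881. On CaPO4 3 and on naringenin 1, 2 of the 20 spots each were marked as outliers by the scanner software and left out. Repeated spots measure the same labelled RNA and say nothing about differences between animals.

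**Figure D1:**
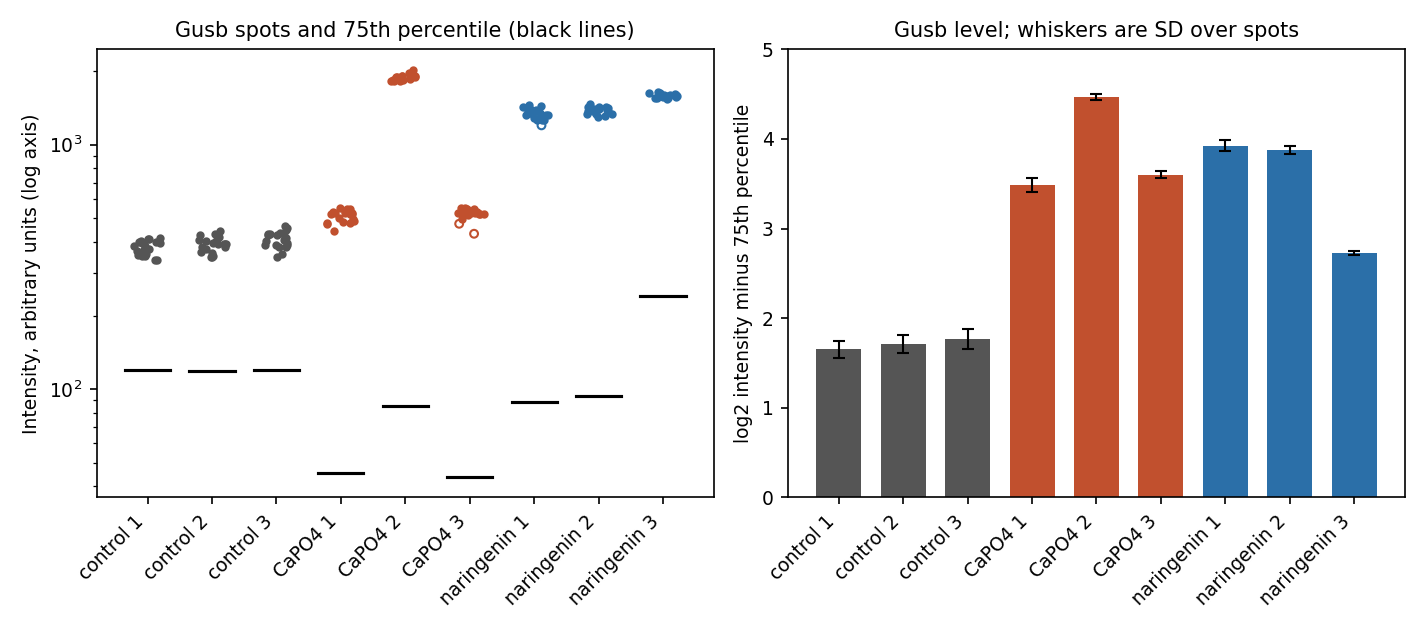
Left, the intensity of each Gusb spot on the 9 arrays (log axis, open circles are outlier spots that were left out), with a black line at the 75th percentile of the array; right, the Gusb level, log2 of the intensity relative to that percentile, with whiskers for the SD over spots. The control levels lie between 1.65 and 1.77, and all 6 other arrays lie above them, from 2.73 on naringenin 3 to 4.47 on CaPO4 2.

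Levels below are log2 values relative to each array's 75th percentile, so that 0 is that percentile and 1 unit is a doubling. Gusb stood at 1.65, 1.71 and 1.77 on controls 1 to 3. It stood at 3.49, 4.47 and 3.60 on CaPO4 1 to 3, and at 3.92, 3.88 and 2.73 on naringenin 1 to 3. Every CaPO4 and naringenin array lay above every control, and the CaPO4 and naringenin arrays overlapped. Such separation was common: every CaPO4 array lay above every control for 22.9% of 36944 probes and below for 25.6%. Every naringenin array lay above every control for 33.9% of 36963 probes and below for 34%. These counts used the contrasts on which Gusb was chosen. In bulk tissue, a difference in cell numbers and a difference in RNA per cell cannot be told apart.

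By group mean, Gusb was at 1.71 ± 0.059 in controls (SD, n = 3), 3.51 ± 0.68 in naringenin and 3.85 ± 0.54 in CaPO4. The control value stood apart from both, while the naringenin and CaPO4 means differed by less than the spread within either group. The spread within the aneurysm groups came from single arrays, as CaPO4 2 was the highest and naringenin 3 the lowest of their groups. Among all probes on an array, Gusb was brighter than 87.0 to 87.2% on the controls, 93.2 to 93.7% on CaPO4 and 91.3 to 93.2% on naringenin.

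Gusb in CaPO4 exceeded control by 2.14 ± 0.41 log2 (SE of a limma fit over all groups, 95% interval 1.22 to 3.06), or 4.4-fold. Naringenin exceeded control by 1.80 ± 0.41 (0.88 to 2.72), or 3.47-fold. Neither interval allows for the choice of Gusb on these contrasts, so neither is to be read as a test against 0. The median change of all probes was -0.040 in CaPO4 and 0.026 in naringenin. With its sign, the Gusb change lay above that of 96.5% of probes in CaPO4 and of 86.2% in naringenin. By size in either direction, it exceeded 92.6% of probes in CaPO4 and 72.5% in naringenin. Without CaPO4 2 the CaPO4 difference was 1.83, and without naringenin 3 the naringenin difference was 2.19.

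The contrast of the treated and untreated aneurysm played no part in choosing Gusb, although it uses the same arrays. Naringenin minus CaPO4 was -0.34 ± 0.41 log2, with a 95% interval from -1.26 to 0.58 and a limma adjusted p of 0.610 over 37498 probes (n = 3 per group). The interval runs from 0.417-fold to 1.49-fold, so this design does not show that the groups are alike. Within the scan that held CaPO4 1 to 3 and naringenin 1 and 2, the difference was 0.049 ± 0.43 (limma adjusted p = 0.954). With both CaPO4 2 and naringenin 3 left out, an alternative added after the data were seen, naringenin exceeded CaPO4 by 0.36 ± 0.10 (limma adjusted p = 0.0296). In that fit 58.1% of all probes were called, and 2 arrays stood on each side. The arrays left out had been seen to differ from their groups, which narrows the SE. On the arrays kept, the log2 ratio of Gusb to the mean of Actb, Gapdh, Ppia and Hprt went the other way, by -0.60. As the controls had a scan of their own, the scan and the control group cannot be told apart in either contrast with control.

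The size of the CaPO4 difference depended on the scaling between arrays. The percentile used for scaling was 118.9 to 120.1 units in controls. It was 45.5, 85.0 and 43.7 units for CaPO4 1 to 3 and 88.7, 94.0 and 239 units for naringenin 1 to 3. On CaPO4 1 and 3 the unscaled Gusb signal was 1.33-fold that of controls while the 75th percentile was 2.68-fold lower, which together give the scaled 3.56-fold. On CaPO4 2 the unscaled signal was 4.80-fold that of controls, and over the 3 naringenin arrays it was 3.66-fold. For naringenin 3, whose percentile was the highest, the unscaled signal was 4.04-fold and the scaled level 2.02-fold that of controls. The part of the lower array percentile in the scaled difference was not tested.

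Over 7 other scalings and background corrections, Gusb in CaPO4 exceeded control by 1.03 to 2.36 log2, the lowest without scaling and the highest by the array median. With normexp background correction it was 1.57. Naringenin exceeded control by 1.48 to 2.21 under the same settings. The lowest of these came from the 75th percentile of detected probes and the highest from the mean of the other repeated-spot genes. The sign of naringenin minus CaPO4 was negative under 5 of the 7 and positive without scaling (0.84) and with normexp (0.067).

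**Figure D2:**
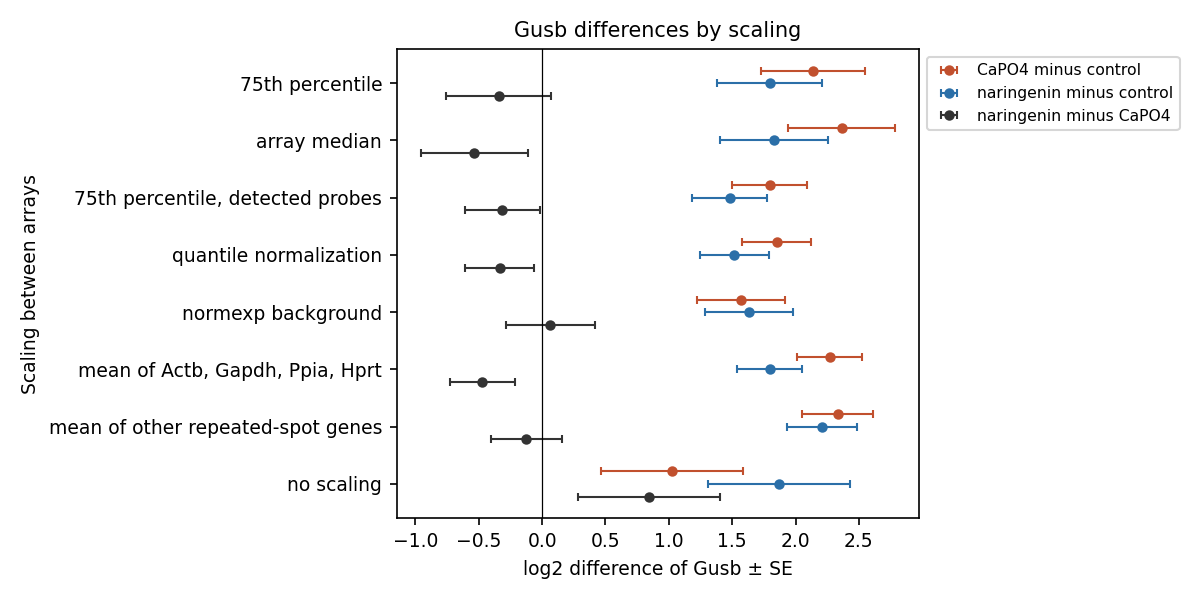
Gusb differences between groups in log2 with the SE of the fit, under 8 ways of making arrays comparable, named on the vertical axis. Both contrasts with control lie above 0 in each row, from 1.03 to 2.36 for CaPO4, while naringenin minus CaPO4 lies on both sides of 0.

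A ratio to other genes on the same array needs no scaling between arrays. Gusb was compared with Actb (cytoskeletal actin), Gapdh (a glycolytic enzyme), Ppia (cyclophilin, a protein-folding enzyme) and Hprt (purine salvage), which carry the same number of spots. Probes differ in how well they bind, so only the shift of a ratio between arrays is read and not its size. The log2 ratio of Gusb to the mean of the 4 was -6.06, -6.04 and -5.99 on controls 1 to 3. For CaPO4 1 to 3 the ratio was -3.55, -4.17 and -3.57. For naringenin 1 to 3 the ratio was -4.17, -4.16 and -4.38. All aneurysm arrays thus lay above all controls. On this measure the mean of naringenin 1 and 2 lay 0.0041 above CaPO4 2, but its difference from the mean of CaPO4 1 and 3 was -0.60.

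By group the ratio was -6.03 ± 0.034 in controls, -3.76 ± 0.35 in CaPO4 and -4.23 ± 0.13 in naringenin (SD, n = 3). The shift was 2.27 log2, or 4.82-fold, for CaPO4 over control and 1.80, or 3.47-fold, for naringenin over control. Naringenin minus CaPO4 was -0.47. CaPO4 1 and 3, whose unscaled Gusb signal was nearest to controls, had the largest shift, at 2.47, and the 4 comparators had fallen by 2.06 log2 there without scaling. A ratio shows that 2 genes changed unequally and not which of them changed.

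The comparators did not give the same answer. Against Actb the shift was 2.13 in CaPO4 and 2.35 in naringenin, and the ratio held to -3.77, -3.71 and -3.79 on CaPO4 1 to 3. Against Ppia it was 2.61 and 2.13, and against Hprt 2.70 and 2.08. Against Gapdh it was 1.64 in CaPO4 and 0.63 in naringenin, where the ratio was -6.24 to -6.26 on controls and -5.66, -5.70 and -5.51 on naringenin. Gapdh itself stood at 7.91 to 8.01 on controls and at 9.59, 9.58 and 8.24 on naringenin. All 4 placed every aneurysm array above every control. They split over naringenin against CaPO4, with 0.22 by Actb, -0.48 by Ppia, -0.61 by Hprt and -1.01 by Gapdh.

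**Figure D3:**
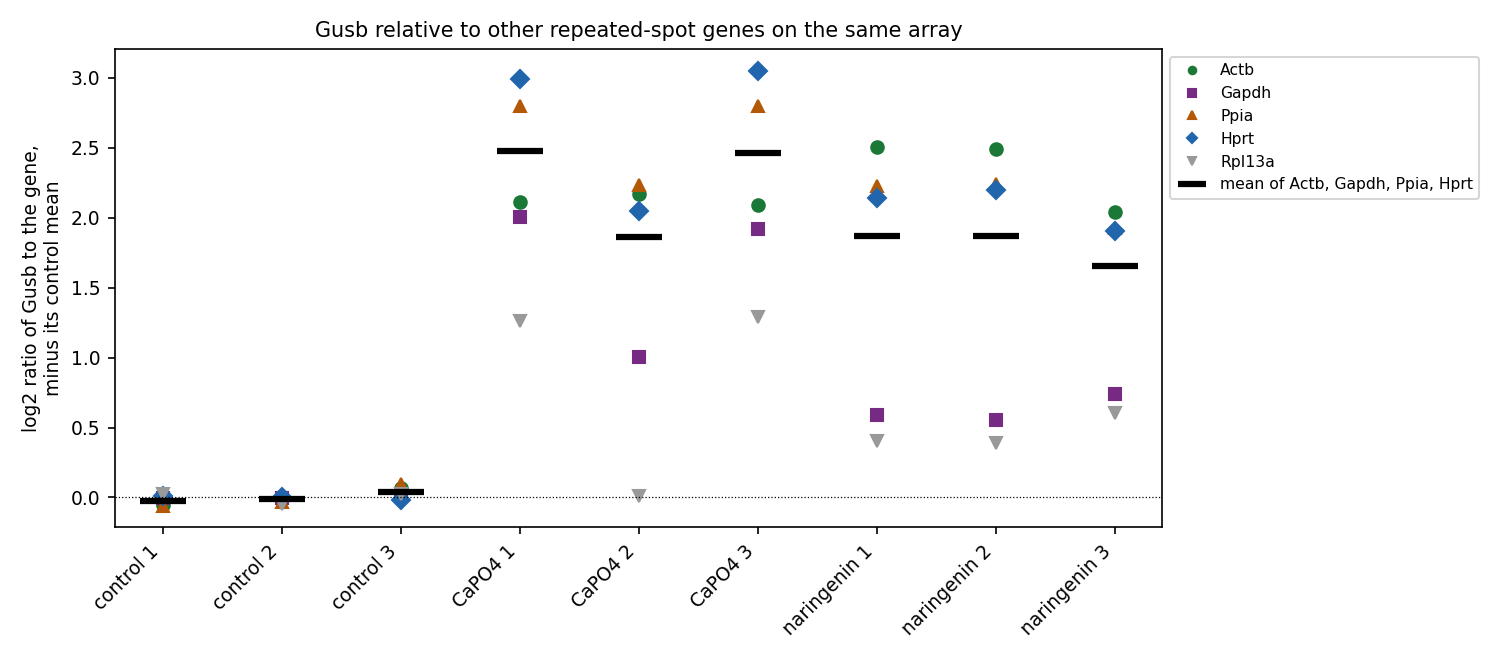
The log2 ratio of Gusb to Actb, Gapdh, Ppia, Hprt and Rpl13a on each of the 9 arrays, minus the control mean of that ratio, with a black bar for the mean of the first 4. The 4 comparators and their mean lie above 0 on all 6 aneurysm arrays, and the ratio to Rpl13a returns to its control value on CaPO4 2.

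Of the 14 other genes with 20 spots, 13 passed the filter on dim probes (well above background on at least 3 arrays). Ldhal6b, which did so on 1 array, did not. The log2 ratio of Gusb to these 13 had a median shift of 2.52 in CaPO4, from 0.86 against Rpl13a to 3.30 against Gk, a glycerol kinase. In naringenin the median shift was 2.13, from 0.46 against Rpl13a to 3.94 against Gk. The ratio was above all controls on every CaPO4 array for 12 of the 13 and on every naringenin array for 13 of 13, and these counts share the same Gusb values. As Gusb was chosen for being higher in these contrasts, such counts were to be high. The share over all probes was not computed for ratios, so the counts are a description only. Naringenin against CaPO4 gave 4 ratios with all naringenin arrays lower (B2m, Gapdh, Tuba1b and Tfrc), and 9 that overlapped. Over all probes, the levels of every naringenin array lay above every CaPO4 array for 12.6% and below for 11.6% of 37436. Those are shares of levels and not of ratios, so they are not a like background for the 4.

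Rpl13a, a protein of the large ribosomal subunit, was the exception. It stood at 2.67, 2.80 and 2.79 on controls, 3.26, 5.49 and 3.35 on CaPO4, and 4.56, 4.53 and 3.16 on naringenin. The ratio of Gusb to Rpl13a was -1.01 to -1.09 on controls and -1.03 on CaPO4 2, but 0.22 and 0.25 on CaPO4 1 and 3. On CaPO4 2, then, both genes were higher than in controls by about as much, while on CaPO4 1 and 3 the Gusb level was further from controls than that of Rpl13a. The change of Rpl13a did not pass the limma test in CaPO4 (1.28 ± 0.61, adjusted p = 0.151) or in naringenin (1.33 ± 0.61, adjusted p = 0.0959). Rpl13a has near-identical processed copies in the genome, which a probe may not tell apart.

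Among these genes Gusb had the highest change upward in both contrasts with control, the direction in which it had been chosen. By size, Gk, Tbp and G6pd2 changed more than Gusb in naringenin. The changes of the 13 ranged from -1.16 (Gk) to 1.28 (Rpl13a) in CaPO4, with a median of -0.38, and from -2.15 to 1.33 in naringenin, with a median of -0.34. Limma called 0 of the 13 in CaPO4 minus control, at a lowest adjusted p of 0.15 and with 0 at an unadjusted p under 0.05, against 21.4% of 37307 probes called overall (10.1% higher, 11.3% lower). In naringenin minus control it called 3, all lower, against 45.9% of probes (22.7% higher, 23.2% lower). These were Tbp, the TATA-box-binding protein (-1.95 ± 0.31, limma adjusted p = 0.00141), G6pd2, a glucose-6-phosphate dehydrogenase (-1.92 ± 0.48, 0.00949), and Gk (-2.15 ± 0.58, 0.0132). In naringenin minus CaPO4 it called Tbp alone (-1.44 ± 0.31, limma adjusted p = 0.0443), against 2.18% of probes (0.816% higher, 1.36% lower). Without CaPO4 2 the 3 counts were 3, 6 and 8, and without any other single array the last was 0. The share of all probes called was not computed for these fits, so the rise may not be particular to these genes.

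**Figure D4:**
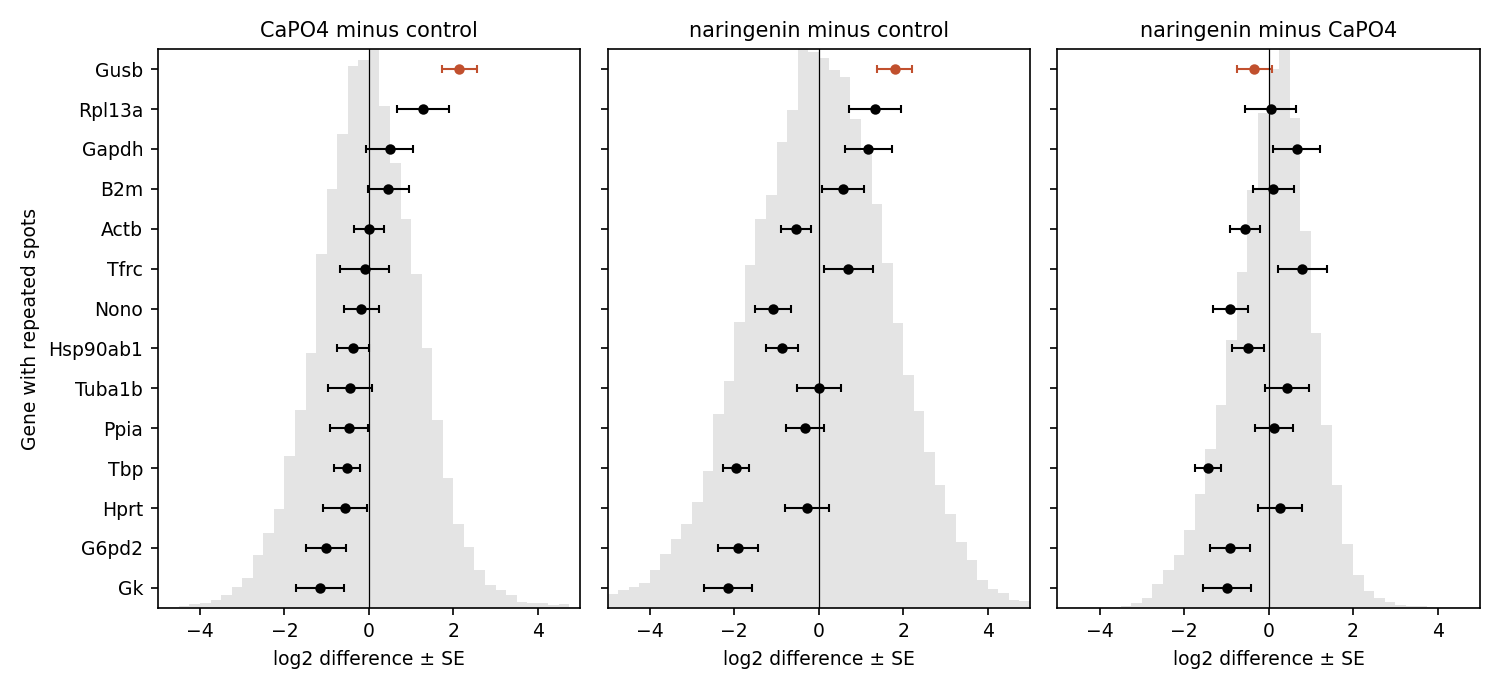
Changes in log2 with the SE of the fit for Gusb (orange) and 13 other genes with 20 spots, in 3 contrasts, over a grey histogram of the changes of all probes tested (heights scaled to the panel). Gusb lies to the right of the other 13 in both contrasts with control and among them in naringenin minus CaPO4.

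Over all 9 arrays Gusb was among the more variable of these genes, but not within groups. Over the 9 arrays its level had an SD of 1.09, second of 14 after Gk (1.16), and a range of 2.81, second after Rpl13a (2.83). Actb had the lowest SD, at 0.43. Within groups the pooled SD of Gusb was 0.50, so most of its spread lay between the controls and the rest. Gusb was chosen on that difference, so its rank over the 9 arrays was to be high. Within groups only Tbp (0.24), Actb (0.37) and Hsp90ab1 (0.43) varied less, and Rpl13a varied most (0.86).

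Few named genes were available to set beside Gusb. Of 123 RefSeq accessions on the array 116 matched the reference table. Of 17 genes of glycosaminoglycan breakdown, Gusb was the only member named. None of 38 other lysosomal enzymes and membrane proteins, 9 genes of sorting to lysosomes and lysosomal gene control, 3 carboxylesterases listed as Gusb partners in the endoplasmic reticulum and 8 genes of glucuronide formation was named. Whether other lysosomal genes moved with Gusb was therefore not tested. Nor was any marker of smooth muscle, fibroblasts, endothelium, macrophages, neutrophils, lymphocytes, adipocytes, red cells or skeletal muscle named, so the labelled tissue could not be checked against its markers.

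The 3 cell type markers that were named varied over the same arrays. Amy2a5, a pancreatic amylase and the only named gene of 12 acinar markers, stood at 0.10, 0.54 and 0.70 on controls, 2.03, 11.05 and 2.04 on CaPO4 and 9.93 to 11.12 on naringenin. Gusb was likewise highest of its group on CaPO4 2, and with scaling both genes were above all controls on CaPO4 1 and 3. Without scaling, Amy2a5 on CaPO4 1 and 3 lay within the range of the controls. Gusb there was 1.83 log2 above controls with scaling and 0.41 without. Ccl21b and Ccl21c, near-identical copies of a chemokine that guides lymphocytes, were 2 of 6 markers named for lymphatic vessels and lymph node stroma. Ccl21b stood at 4.93 to 5.05 on controls, 7.58, 9.65 and 7.70 on CaPO4 and 9.59, 9.57 and 8.51 in naringenin, so that no array of these groups overlapped the controls. The part of these cells in the Gusb levels was not tested.

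The pattern of Gusb over the arrays was compared with that of 73 RefSeq probes well above background on all 9. The 10 with the highest Pearson r were H2ac19 (0.946), Gm13304 (0.936), Aida (0.935), Ccl21b (0.930), Ccl21c (0.925), Gm20854 (0.896), Rpl13a (0.88), Vmn1r157 (0.87), Gm20917 (0.87) and NM_001177418 (0.85), the last without a symbol in the table. These are descriptions over 9 arrays that share the scaling and the difference of the controls from the rest. Gm13304, Ccl21b and Ccl21c had nearly the same levels on the aneurysm arrays, so they may not be separate cases of likeness. A value of r above 0.9 was reached by 5 of the 73, or 6.85%, and by 7.26% of the 18742 probes of all kinds, so such likeness was common on this array. The median r was 0.73 for the 73 and 0.20 for the 18742. The order changed without scaling, where 6 of these 10 were still among the 10 highest. Ccl21c (0.989), Gm13304 (0.988), Ccl21b (0.986), Amy2a5 (0.978) and Gm20854 (0.970) then led. Amy2a5 was at 0.731, rank 37, with scaling. H2ac19 (0.945), Aida (0.913) and Rpl13a (0.884) ranked 9, 22 and 29 without it.

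Over the 6 aneurysm arrays alone, with scaling, r was 0.98 for H2ac19, a histone H2A gene, 0.89 for Aida, an axin-binding protein, and 0.88 for Rpl13a. A value above 0.8 was reached by 14 of the 73, or 19.2%, among them Actb (0.93), whose r over all 9 arrays was 0.088. The share of all probes above 0.8 was not computed, so that count is a description only. For Ccl21b and Ccl21c r over the 6 arrays was 0.57 and 0.56, and for Vmn1r157, a vomeronasal receptor, 0.38. H2ac19 stood at 4.69 to 4.82 on controls, 6.0, 6.91 and 6.04 on CaPO4, and 6.21, 6.26 and 4.68 on naringenin. It followed Gusb on CaPO4 and on naringenin 1 and 2 but lay at the control level on naringenin 3. The lowest correlations were those of NM_011667 (-0.91), Gm3286 (-0.83) and Gk (-0.80). Gk stood at 1.56 to 1.68 on controls, at 1.23, -1.05 and 1.21 on CaPO4, and at -0.73, -0.89 and 0.045 on naringenin.

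**Figure D5:**
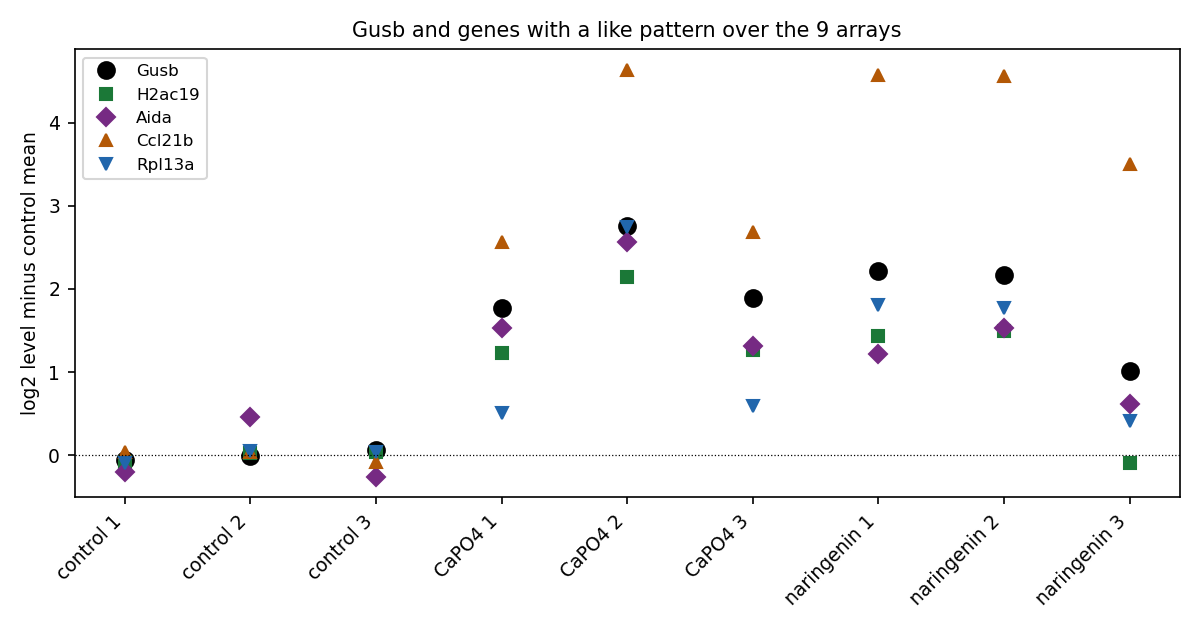
Levels in log2 of Gusb, H2ac19, Aida, Ccl21b and Rpl13a on the 9 arrays, each minus its own control mean. All 5 are highest of the CaPO4 group on CaPO4 2 and lowest of the naringenin group on naringenin 3, where H2ac19 (4.68) is back at its control level.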

How the data were processed

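Members, gene lists and tests were chosen with earlier results of these data known. Per the file headers, the authors' spot intensity is background-subtracted within an array and not scaled between arrays (Agilent Feature Extraction 11.0.1.1). The deposited table of all arrays held the same intensity to within 0.0999%. The marks for outlier spots and spots well above background, deposited in the scanner files, are scores of 0 or 1. Here control and outlier spots were removed, log2 values of repeated spots averaged, and the 75th percentile of each array subtracted. Detection of a repeated probe required 50% of its spots to be above background. Of 59709 probes, 37498 were detected on at least 3 arrays and kept. Groups were fitted in 1 limma model (limma 3.58.1, R 4.3.3, two-sided, Benjamini-Hochberg, call at adjusted p under 0.05). The code was run on simulated arrays with independent noise and no array unlike its group. That checks the code and not how the fit performs on these arrays. Normexp correction (offset 50) used median spot signals, since the mean signals planned were not used here. Genes were named by likeness to Gusb (10 highest, 3 lowest) or as repeated-spot genes. Figures used matplotlib 3.10.9. The number of arrays limits the precision.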

Additional observations from a re-analysis of the deposited data

How the results depend on the processing

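Both Gusb contrasts with control kept their direction under every alternative run, 22 for CaPO4 and 23 for naringenin, at 1.03 to 2.36 and 1.48 to 2.21 log2. Some of these runs could not move the value: the replicate block, the run without the filter, and leaving out an array of the group not compared. Gusb was chosen on these contrasts, so the tally is no support for their direction. For CaPO4 the value moved by more than the SD between replicates without scaling (1.03) and with normexp (1.57). Leaving out each array gave 1.83 to 2.32 for CaPO4 and 1.59 to 2.19 for naringenin, and -0.55 to 0.049 for naringenin minus CaPO4. That last contrast turned positive without scaling (0.84, limma adjusted p = 0.229), with normexp (0.067), without naringenin 3 (0.049), equally with a scan block (0.049), and with both CaPO4 2 and naringenin 3 left out (0.36, limma adjusted p = 0.0296). With both left out, the ratio to the mean of Actb, Gapdh, Ppia and Hprt stayed negative, at -0.60. A random block for scan, added after the data were seen, gave 1.76 for naringenin minus control. As the controls had a scan of their own, that block cannot separate the scan from the control group. A replicate block left the Gusb values at 2.14, 1.80 and -0.34, as the design is balanced. Same-numbered arrays deviated together at r over 0.1 in 2 of 9 pairs (range -0.41 to 0.45). With 3 arrays per group, and CaPO4 2 and naringenin 3 unlike their groups, this cannot decide whether the numbers pair the arrays. Against Actb, Ppia, Hprt, Gapdh and the mean of all other repeated-spot genes, the ratio shift in naringenin minus control was 2.35, 2.13, 2.08, 0.63 and 2.21. In CaPO4 it was 2.61, 2.70 and 1.64 against Ppia, Hprt and Gapdh, and in naringenin minus CaPO4 0.22, -1.01 and -0.13 against Actb, Gapdh and the mean of all others. Counts of other repeated-spot genes called by limma in CaPO4 minus control were 0 in the main fit, 4 without scaling, 4 with quantile normalization, 1 with normexp, 0 to 3 without each array and 11 without CaPO4 2 and naringenin 3. In naringenin minus control they were 3, and 5 by the percentile of detected probes, 7 with quantile normalization, 5 with normexp, 3 to 6 without each array and 11 without both. In naringenin minus CaPO4 they were 1, and 0 by the percentile of detected probes, without scaling, with normexp, with the replicate block and without the filter on dim probes, 0 to 8 without each array and 11 without both. Outside the main fit, the share of all probes called was computed only for naringenin minus CaPO4 without both arrays, at 58.1%. The counts under the other settings are therefore not read as results about these genes. The causes were not tested.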
